A study of Mus musculus with 36 samples.

Results

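The genes described here encode the parts of the mouse proteasome and were chosen by name: every probe whose gene symbol on the array begins with Psm, a letter from a to g and a number. That rule found 86 of 45281 probes, which carry 49 gene symbols. Of these, 70 probes passed the detection filter (a detection p-value under 0.05 on at least 3 arrays), and 43 genes could be tested among 16235 genes in all, each through its brightest probe. The tested genes hold 41 proteasome subunits, activators and assembly chaperones, and 2 others that match the rule but have none of these roles, Psmc3ip and Psme3ip1. Psma1, Psma3, Psma6, Psma8, Psmd3 and Psmg4 have probes that were detected on 0 of 36 arrays and could not be tested, so 3 of the 7 subunits of the outer core ring have no value here. Psmf1, an inhibitor of the core, was not analysed here.

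The cells were mouse epiblast stem cells (EpiSC), pluripotent cells derived from the epiblast, labelled as such on all 36 arrays with no strain, sex or passage given. They were grown on Matrigel in medium conditioned by embryonic fibroblasts and supplemented with bFGF and Activin. Retinoic acid (RA), made from vitamin A and a strong inducer of differentiation, was given at 5 µM. The schedule called RA 36 h combined 36 h of RA with 24 h of a compound or of Mock. The schedule called RA 24 h combined 24 h of RA with 36 h of a compound, of Mock or of CM. Cells without RA are labelled with 36 h of Mock in place of RA, combined with 24 h of a compound, of Mock or of CM. The RA schedules therefore differ in the time with compound as well as with RA, and the labels give durations but not their order. The 10 compounds were Rapamycin at 100 nM (an mTOR inhibitor), PF573228 at 250 nM (a FAK inhibitor), Dorsomorphin dihydrochloride at 2 µM (an inhibitor of AMPK and BMP receptors), BAY 11-7082 at 25 µM (an inhibitor of NF-κB activation), Forskolin at 50 µM (an activator of adenylyl cyclase), BAPTA-AM at 10 µM (a calcium chelator), Docetaxel at 500 pM (a microtubule stabiliser), Wortmannin at 50 nM (a PI3K inhibitor), Purmorphamine at 2 µM (a Smoothened agonist) and SU5402 at 2 µM (an inhibitor of FGF and VEGF receptors). Mock is basal medium and CM is the fibroblast-conditioned medium. Each schedule and treatment was hybridised once, except CM without RA, which has 2 arrays, so a schedule is described over its 10 compound arrays and 1 Mock array. No label says that arrays came from separate cultures, so a p-value here measures the spread between single arrays, which may be technical.

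The 26S proteasome degrades proteins that carry ubiquitin chains. Its 20S core is a barrel of stacked rings, with alpha subunits (Psma genes) outside and beta subunits (Psmb genes) inside, where Psmb5, Psmb6 and Psmb7 hold the catalytic sites. In cells exposed to interferon, and constantly in immune tissue, Psmb8, Psmb9 and Psmb10 replace those catalytic subunits to form the immunoproteasome, which favours peptides for MHC class I. The 19S regulatory particle caps the core, with Psmc genes encoding its ATPase motor and Psmd genes its lid and scaffold. Psme1 and Psme2 (PA28 alpha and beta), Psme3 (PA28 gamma) and Psme4 (PA200) are alternative caps, and Psmg genes encode chaperones that assemble the core. Human embryonic stem cells are known for high proteasome activity.

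The inducible core subunits Psmb8, Psmb9 and Psmb10 fell in both RA schedules, and the promoter windows of Psmb9 and Psmb10 are shown beside that of Psmb5, the constitutive subunit that also fell, and of Psme4, which fell in the RA 36 h schedule. Each runs from 250 bases before to 50 bases after the annotated start, 5′ to 3′ on the gene's strand, in RefSeq's GRCm38.p6. Capitals mark matches, on either strand, to the antioxidant response element core TGACNNNGC (bound by Nfe2l1 and Nfe2l2, which drive proteasome genes), the NF-Y box CCAAT, the ETS site CCGGAAG or the E-box CACGTG. Psmb9 lies at chr17:34187281-34187580 on the minus strand, Psmb10 at chr8:105938343-105938642 minus, Psmb5 at chr14:54617946-54618245 minus and Psme4 at chr11:30771525-30771824 plus.
Psmb9: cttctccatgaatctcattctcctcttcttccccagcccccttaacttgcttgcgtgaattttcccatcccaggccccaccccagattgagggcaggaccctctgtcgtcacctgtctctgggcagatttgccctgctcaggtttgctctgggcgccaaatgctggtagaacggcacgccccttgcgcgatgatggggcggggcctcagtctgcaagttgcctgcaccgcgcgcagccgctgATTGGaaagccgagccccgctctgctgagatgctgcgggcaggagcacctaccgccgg
Psmb10: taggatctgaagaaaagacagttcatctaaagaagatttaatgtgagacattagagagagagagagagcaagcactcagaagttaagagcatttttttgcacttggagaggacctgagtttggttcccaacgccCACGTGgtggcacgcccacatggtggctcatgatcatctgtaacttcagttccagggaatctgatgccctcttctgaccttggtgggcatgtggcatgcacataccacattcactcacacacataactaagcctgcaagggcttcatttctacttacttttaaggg
Psmb5: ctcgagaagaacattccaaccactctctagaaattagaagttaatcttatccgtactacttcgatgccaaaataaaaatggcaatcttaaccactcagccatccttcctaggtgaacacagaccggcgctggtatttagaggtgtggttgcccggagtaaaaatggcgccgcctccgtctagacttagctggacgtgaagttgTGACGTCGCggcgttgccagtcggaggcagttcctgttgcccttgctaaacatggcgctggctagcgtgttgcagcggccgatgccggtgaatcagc
Psme4: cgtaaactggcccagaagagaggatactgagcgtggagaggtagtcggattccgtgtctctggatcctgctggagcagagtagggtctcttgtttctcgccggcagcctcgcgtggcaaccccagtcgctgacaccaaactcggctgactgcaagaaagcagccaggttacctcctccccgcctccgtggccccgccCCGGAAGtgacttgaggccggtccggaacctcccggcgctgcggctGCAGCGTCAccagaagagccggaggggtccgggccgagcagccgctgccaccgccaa
Of the 41 proteasome genes tested, 35 have such a window. The ETS site was in 13 of the 35, 37.1%, against 8.86% of 32841 windows in the table. Those 32841 windows were not limited to genes tested on the array, so all shares here compare unlike sets. Of the 13, 9 belong to the 19S particle. That particle has 6 ATPases and 10 non-ATPases among the 41 genes, all but Psmc3 and Psmd7 with a window. The antioxidant response element core was in 6 (Psmb5, Psmb6, Psmc6, Psmd9, Psmd12 and Psme4), 17.1% against 12.4%. The NF-Y box was in 11, 31.4% against 37.4%, and the E-box in 4, 11.4% against 7.15%. The interferon-linked motifs TTCNNNGAA (GAS site) and GAAANNGAA (IRF core) were added after the values were known. The first was in 3 windows (Psmb8, Psmd2, Psmg1), 8.57% against 8.3%, and the second in 6 (Psmb3, Psmb4, Psmc2, Psmd4, Psmd9, Psme1), 17.1% against 8.56%. The windows of Psmb9 and of Tap1, the neighbouring gene for the peptide transporter, overlap by 275 bases, with starts 226 bases apart on opposite strands. A match is a description of these letters and not evidence of binding.

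With RA for 36 h, 11 proteasome-named genes rose and 15 fell of 43, by limma with Benjamini-Hochberg adjustment over all genes at a threshold of 0.05. Of all genes tested, 26.8% rose and 30.3% fell in that comparison, so the shares are near the background. With RA for 24 h, 12 rose and 19 fell, where 29.4% of all genes rose and 33% fell. With the slide as a random block, 24 of these 26 calls remained after 36 h and 26 of 31 after 24 h. Such a block cannot remove a slide difference between schedules, which lay on different slides but for the Mock array without RA. Changes were small: the median absolute log2 change of the 43 genes was 0.21 after 36 h, against 0.26 over all genes, and 0.24 after 24 h, against 0.28. A change of 1 or more on the log2 scale was found for 1 of the 43, Psmb9 in the RA 36 h schedule, which is 2.33% against 9.3% of all genes. The split moved with the scaling: with median centring in place of quantile normalisation, 5 rose and 16 fell after 36 h. The comparisons of each RA schedule with no RA share the arrays without RA, so their values are given side by side and not as support for each other. In these bulk samples, fewer cells of a type and less RNA per cell cannot be told apart.

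**Figure D1:**
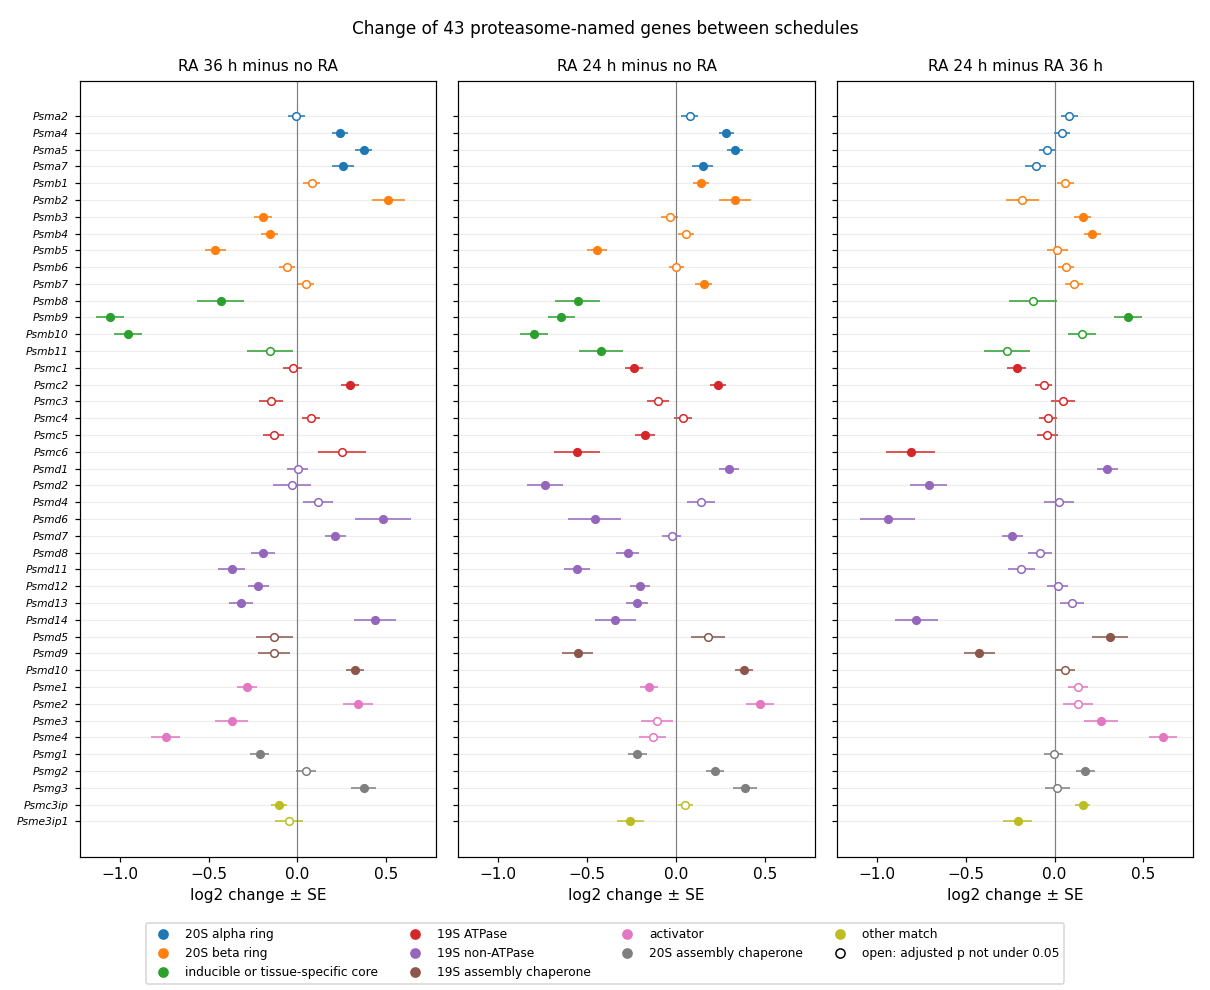
Log2 change with its standard error (x axis) for each of the 43 tested genes (y axis), coloured by role, for RA 36 h against no RA, RA 24 h against no RA, and RA 24 h against RA 36 h; filled points have an adjusted p under 0.05. The inducible core genes lie left of 0 in both comparisons with no RA, 3 of 4 alpha ring genes lie right of 0 with filled points, and several 19S genes lie left of 0 only where RA 24 h is compared.

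Psmb9, which encodes the inducible subunit beta 1i, fell furthest of the 43 genes after RA 36 h, each read from its brightest probe. Its log2 level ran from 5.88 to 6.61 over the 11 arrays without RA (median 6.26), from 4.99 to 5.88 after RA 24 h (median 5.66) and from 4.81 to 5.30 after RA 36 h (median 5.18). All arrays of the RA 36 h schedule lay below all arrays without RA. The gene fell by 1.06 ± 0.08 (SE) on the log2 scale after 36 h, which is 2.08-fold (adjusted p = 5.28e-12), and by 0.64 ± 0.08 after 24 h (adjusted p = 3.78e-08), each in 11 of 11 treatments. The schedules with RA also differed, with RA 24 h higher by 0.41 ± 0.08 (adjusted p = 0.000159). Its probe was detected on 13 of 13 arrays without RA, on 10 of 12 after RA 24 h and on 6 of 11 after RA 36 h, so the lowest levels are close to background and the fold is compressed.

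Psmb10, the inducible subunit beta 2i, is bright enough to be detected on every array. Its log2 level was 10.16 to 10.90 without RA (median 10.55), 9.56 to 9.98 after RA 24 h (median 9.80) and 9.35 to 9.79 after RA 36 h (median 9.58). Neither RA schedule overlapped the arrays without RA. It fell by 0.95 ± 0.08 after 36 h, 1.94-fold (adjusted p = 8.07e-11), and by 0.80 ± 0.08 after 24 h, 1.74-fold (adjusted p = 1.41e-09). A second probe of Psmb10 gave changes of -1.20 ± 0.10 and -0.84 ± 0.10, and on that probe RA 24 h was higher than RA 36 h by 0.36 ± 0.10 (adjusted p = 0.00779), whereas the brighter probe gave 0.15 ± 0.08 (adjusted p = 0.13).

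Psmb8, the inducible subunit beta 5i, was near background. It was detected on 9 of 13 arrays without RA, 3 of 12 after RA 24 h and 4 of 11 after RA 36 h. Its log2 level ranged from 4.98 to 5.79 (median 5.47) without RA, from 4.50 to 5.58 (median 4.91) after RA 24 h and from 4.62 to 5.46 (median 5.04) after RA 36 h, so the schedules overlapped. It fell by 0.43 ± 0.13 after 36 h (adjusted p = 0.00748) and by 0.55 ± 0.13 after 24 h (adjusted p = 0.000547). With the first 5 compounds alone, which share a slide in each schedule, the change after 24 h was -0.22 (adjusted p = 0.339), and with the last 5 alone the change after 36 h was -0.20 (adjusted p = 0.262). Psmb11, the thymus-specific subunit beta 5t, was detected on 3 of 13 arrays without RA, 0 of 12 after RA 24 h and 3 of 11 after RA 36 h. It is counted among the genes called lower after 24 h (adjusted p = 0.0045), but it was not well above background on any RA 24 h array, and its level without RA does not exceed the bound set by background, so no size is given. Psma8, the core subunit of the testis, was detected nowhere.

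Psmb5, the constitutive chymotrypsin-like subunit that beta 5i replaces, fell as well. Its log2 level was 10.98 to 11.57 without RA (median 11.34), 10.65 to 11.06 after RA 24 h (median 10.87) and 10.67 to 11.09 after RA 36 h (median 10.87). Of the 11, the only array without RA inside the range of the RA arrays was Mock, at 10.98. Of the CM arrays without RA, which are not among the 11, the first also lay inside it at 10.97. The second CM array lay above it at 11.40. The gene fell by 0.46 ± 0.06 after 36 h (adjusted p = 2.67e-07) and by 0.45 ± 0.06 after 24 h (adjusted p = 2.65e-07), in 11 of 11 treatments each. The other constitutive catalytic subunits did not fall. Psmb6, the caspase-like subunit, changed by -0.06 ± 0.04 (adjusted p = 0.265) and 0.00 ± 0.04 (adjusted p = 0.964). The brightest probe of Psmb7, the trypsin-like subunit, changed by 0.05 ± 0.05 (adjusted p = 0.439) after 36 h and rose by 0.16 ± 0.05 after 24 h (adjusted p = 0.00573). Its 4 tested probes differed. The dimmest rose by 0.48 ± 0.10 after 36 h (adjusted p = 0.00013) and by 0.27 ± 0.09 after 24 h (adjusted p = 0.0151). The second brightest gave -0.07 ± 0.05 and 0.12 ± 0.05, and the third 0.01 ± 0.06 and -0.03 ± 0.05.

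**Figure D2:**
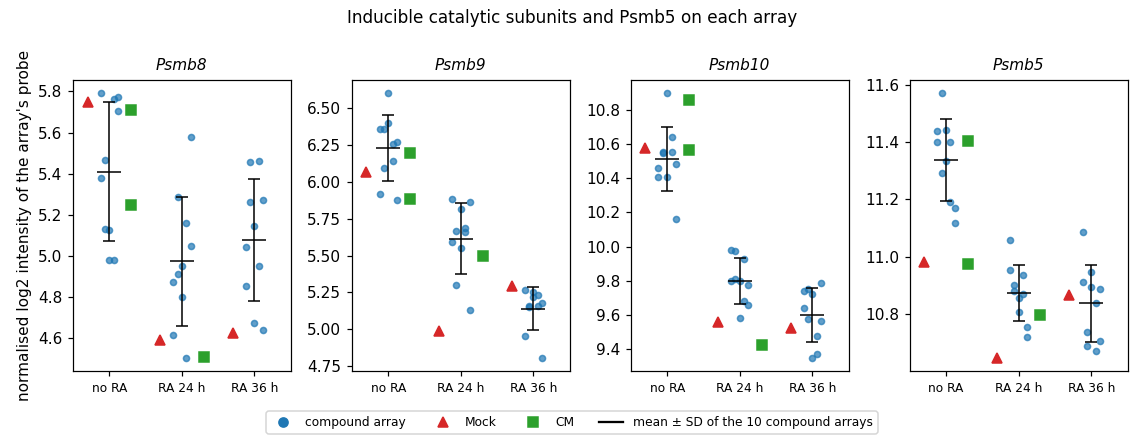
Normalised log2 intensity (y axis) of Psmb8, Psmb9, Psmb10 and Psmb5 on each array, by schedule (x axis); circles are the 10 compound arrays with their mean ± SD, triangles Mock and squares CM, and each panel has its own y range that does not start at 0. Psmb10 with RA lies below 10 on every array and without RA above it, and Psmb9 steps down from no RA through RA 24 h to RA 36 h on the compound arrays, while its Mock arrays lie lower after RA 24 h (4.99) than after RA 36 h (5.30).

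On the Mock and CM arrays alone, without any compound, Psmb10 changed by -1.14 ± 0.19 after 36 h (adjusted p = 1.94e-05) and by -1.17 ± 0.15 after 24 h (adjusted p = 1.11e-07). Psmb9 changed by -0.75 ± 0.24 (adjusted p = 0.0208) and -0.81 ± 0.19 (adjusted p = 0.00115), and Psmb8 by -0.95 ± 0.34 (adjusted p = 0.0417) and -1.02 ± 0.27 (adjusted p = 0.00344). Psmb5 changed by -0.25 ± 0.17 after 36 h, which did not pass (adjusted p = 0.308), and by -0.40 ± 0.13 after 24 h (adjusted p = 0.0202). These control comparisons rest on 1 array for RA 36 h (Mock), 2 for RA 24 h (Mock and CM) and 3 without RA (1 Mock and 2 CM). The lone RA 36 h array is assumed to vary like the other groups, so the errors and p-values after 36 h hold no spread of its own, and Mock is set there mostly against CM. On these arrays 4 of the 43 genes rose and 6 fell after 36 h (11.3% and 12.3% of all genes) and 7 rose and 10 fell after 24 h (17% and 17.2%).

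Of the 4 tested subunits of the alpha ring, 3 rose and 0 fell in each comparison with no RA, where 26.8% of all genes rose after 36 h and 29.4% after 24 h. Psma5 had a log2 level of 13.96 to 14.18 without RA (median 14.07), 14.16 to 14.58 after RA 24 h (median 14.42) and 14.30 to 14.60 after RA 36 h (median 14.45), with no overlap between no RA and RA 36 h. It rose by 0.37 ± 0.05 after 36 h (adjusted p = 1.88e-07) and by 0.33 ± 0.05 after 24 h (adjusted p = 7.16e-07). Psma4 rose by 0.24 ± 0.04 and 0.28 ± 0.04, and Psma7 by 0.26 ± 0.06 and 0.15 ± 0.06, the latter with an adjusted p of 0.0255. Psma2 changed by -0.01 ± 0.05 and 0.08 ± 0.05 and passed in neither.

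In the constitutive beta ring, 1 of 7 rose and 3 fell after 36 h, and 3 rose and 1 fell after 24 h. The shares over all genes were 26.8% and 30.3% after 36 h, and 29.4% and 33% after 24 h. Psmb2, a structural subunit, had a log2 level of 12.18 to 13.01 without RA (median 12.49), 12.56 to 13.19 after RA 24 h (median 12.90) and 12.93 to 13.27 after RA 36 h (median 13.04). It rose by 0.51 ± 0.09 after 36 h (adjusted p = 3.76e-05) and by 0.33 ± 0.09 after 24 h (adjusted p = 0.00254), the latter in 7 of 11 treatments. After 24 h the last 5 compounds alone gave 0.00 (adjusted p = 0.99) and the first 5 gave 0.70 (adjusted p = 0.000101). The sets differed in both schedules: the first 5 averaged 12.36 without RA and 13.06 after RA 24 h, and the last 5 12.72 in each. The first 5 are the compounds Rapamycin, PF573228, Dorsomorphin, BAY 11-7082 and Forskolin, which share a slide in each schedule, and the last 5, which share another. Psmb3 and Psmb4, other structural subunits, fell after 36 h by 0.19 ± 0.05 and 0.15 ± 0.05. After 24 h their changes of -0.04 and 0.06 did not pass, and RA 24 h lay above RA 36 h for both (0.16, adjusted p = 0.0136, and 0.21, adjusted p = 0.000951). Psmb1 rose after 24 h by 0.14 ± 0.05.

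Averaged over the genes of a role and centred on no RA, the alpha ring stood at 0.21 ± 0.04 (SD, n = 11 arrays) after RA 36 h and 0.20 ± 0.05 after RA 24 h. The 4 inducible or tissue-specific core genes, Psmb8, Psmb9, Psmb10 and Psmb11, stood at -0.64 ± 0.12 and -0.58 ± 0.12. Of these, Psmb8 and Psmb11 are near background. The beta ring stood at -0.03 ± 0.04 and 0.03 ± 0.04. These averages describe the arrays and were not tested.

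In the 19S particle, after RA 36 h, 3 of its 10 tested non-ATPase subunits rose and 4 fell, and after RA 24 h 1 rose and 7 fell. Of the 6 ATPases, 1 rose and 0 fell after 36 h, and 1 rose and 3 fell after 24 h. Over all genes, 26.8% rose and 30.3% fell after 36 h, and 29.4% rose and 33% fell after 24 h. Compared with each other directly, RA 24 h was lower than RA 36 h for 4 of the 10 non-ATPases and 2 of the 6 ATPases, and higher for 1 and 0, so 9 of these 16 genes were not called. Over all 43 genes that comparison had 9 higher and 8 lower, against 21.8% and 18.6% of all genes. No slide held RA 24 h together with another schedule, and the slide and the schedule cannot be told apart for it. Of the arrays without RA, only Mock shared a slide with RA 36 h arrays. Slide and schedule are therefore largely inseparable for RA 36 h against no RA as well.

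Psmd2, a large scaffold subunit of the 19S base, had a log2 level of 6.85 to 7.95 without RA (median 7.37), 6.04 to 7.04 after RA 24 h (median 6.50) and 6.67 to 7.68 after RA 36 h (median 7.34). It fell by 0.74 ± 0.10 after 24 h (adjusted p = 4.66e-07) and changed by -0.03 ± 0.10 after 36 h (adjusted p = 0.822), and the schedules differed by -0.71 ± 0.10 (adjusted p = 7.18e-06) in 11 of 11 treatments. Psmd14, the lid deubiquitinase that removes ubiquitin chains from substrates, ran from 10.77 to 11.45 without RA (median 10.94), from 10.17 to 11.28 after RA 24 h (median 10.78) and from 11.32 to 11.69 after RA 36 h (median 11.48). Here RA 24 h and RA 36 h did not overlap and differed by -0.78 ± 0.12 (adjusted p = 1.18e-05). Against no RA, Psmd14 rose by 0.44 ± 0.12 after 36 h (adjusted p = 0.00281) and was lower by 0.34 ± 0.11 after 24 h (adjusted p = 0.0114). A second Psmd14 probe of like brightness gave 0.22 ± 0.11 after 36 h, which did not pass (adjusted p = 0.0909). It gave -0.34 ± 0.10 after 24 h (adjusted p = 0.00603) and -0.56 ± 0.11 between the RA schedules (adjusted p = 0.0002).

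Psmd6, a lid subunit, had a log2 level of 7.01 to 8.18 without RA (median 7.66), 5.999 to 8.30 after RA 24 h (median 7.18) and 7.53 to 8.91 after RA 36 h (median 8.05). It rose by 0.48 ± 0.16 after 36 h (adjusted p = 0.0105), was lower by 0.46 ± 0.15 after 24 h (adjusted p = 0.0101), and differed between the RA schedules by -0.94 ± 0.16 (adjusted p = 3.36e-05). Its arrays spread more widely after RA 24 h than in the other schedules. Psmc6, an ATPase, changed by 0.25 ± 0.14 after 36 h (adjusted p = 0.118) and fell by 0.56 ± 0.13 after 24 h (adjusted p = 0.000608), a difference of -0.81 ± 0.14 (adjusted p = 3.77e-05). Psmd9, a chaperone that holds ATPases during assembly, changed by -0.13 ± 0.09 (adjusted p = 0.221) and fell by 0.55 ± 0.09 after 24 h (adjusted p = 3.75e-06).

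Within the RA 24 h schedule these genes also differed between slides. The mean log2 level of Psmd14 after RA 24 h was 11.01 ± 0.31 (SD, n = 5) on the slide of the first 5 compounds and 10.42 ± 0.23 on that of the last 5, against 10.87 ± 0.12 and 11.16 ± 0.29 for the same compounds without RA. With the first 5 compounds alone, Psmd14 changed by 0.14 after RA 24 h (adjusted p = 0.37), and with the last 5 alone by -0.74 (adjusted p = 0.00118), so the call against no RA was made in the last 5 compounds and not in the first 5. The Mock array, which belongs to neither set, stood at 10.78 after RA 24 h and 11.23 without RA. The second Psmd14 probe averaged 10.92 after RA 24 h against 11.16 without RA with the first 5, and 10.60 against 11.02 with the last 5. Psmd6 likewise gave -0.09 (adjusted p = 0.764) and -0.73 (adjusted p = 0.0194), and Psmc6 -0.30 (adjusted p = 0.262) and -0.77 (adjusted p = 0.00137). Psmd9 gave -0.28 (adjusted p = 0.0596) and -0.70 (adjusted p = 0.000831). Psmd2 fell in both sets, by 0.52 (adjusted p = 0.00134) and by 1.01 (adjusted p = 0.000294). Against RA 36 h, the brightest probes of Psmd2, Psmd6, Psmd14, Psmc6 and Psmd9 were lower after RA 24 h in either set of 5 compounds. Their adjusted p ran from 0.000452 to 0.0364. The rises after RA 36 h leaned the other way, with 0.21 for Psmd14 (adjusted p = 0.263) and 0.33 for Psmd6 (adjusted p = 0.268) in the last 5 compounds alone. Slide and compound cannot be told apart in this split, since each set of 5 sits on its own slide.

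Several other 19S genes moved in the same direction in both comparisons with no RA, as read from their brightest probes, and the rest did not. Psmd11, a lid subunit, fell by 0.37 ± 0.08 and 0.56 ± 0.07, Psmd13 by 0.32 ± 0.07 and 0.22 ± 0.06, Psmd8 by 0.19 ± 0.07 and 0.27 ± 0.06 and Psmd12 by 0.22 ± 0.06 and 0.20 ± 0.06, after 36 h and 24 h in each case. Psmd13 had log2 levels of 11.19 to 11.51 after RA 36 h and 11.57 to 11.83 without RA, which do not overlap. Psmc2, an ATPase, rose by 0.30 ± 0.05 and 0.24 ± 0.05, though with the last 5 compounds alone the change after 24 h was 0.10 (adjusted p = 0.291). Psmd10 (gankyrin), an assembly chaperone, rose by 0.32 ± 0.05 and 0.38 ± 0.05 on a probe whose direction 2 further probes shared. Psmd7, a lid subunit, rose after 36 h by 0.21 ± 0.06, with a change of -0.02 ± 0.06 after 24 h, and the schedules differed by -0.24 ± 0.06 (adjusted p = 0.00172). Its second brightest probe gave 0.13 ± 0.07 after 36 h (adjusted p = 0.0943) and -0.08 ± 0.07 between the RA schedules (adjusted p = 0.338). The dimmest gave 0.18 ± 0.07 (adjusted p = 0.0481) and 0.09 ± 0.07 (adjusted p = 0.388). Psmd1 rose after 24 h by 0.30 ± 0.06 (adjusted p = 7.14e-05), with a change of 0.00 ± 0.06 after 36 h. Psmc1 and Psmc5 fell after 24 h by 0.24 ± 0.05 and 0.17 ± 0.06. Psmc3, Psmc4 and Psmd4 passed in neither comparison, nor did the chaperone Psmd5.

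Several 19S genes have a second, dimmer probe, and these did not always follow the brighter one. Over the 21 genes with further tested probes there are 27 such probes. After RA 24 h, 8 of the 27 (29.6%) had the opposite sign to the brightest probe of their gene, near the 30.9% found over 7764 such probes of all genes. For 4 of the 27 (14.8%) both probes passed the threshold with opposite signs, against 5.9% over all genes. Among 9 proteasome probes that were dimmer than the brightest by more than 2 on the log2 scale, the change after RA 24 h lay lower than that of the bright probe by a median of 0.33, where the median difference over 3328 such probes of all genes was -0.09. After RA 36 h the medians were 0.00 and -0.01.

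The dim probe of Psmd12 had a log2 level of 8.55 to 9.63 without RA (median 8.92), 7.42 to 9.30 after RA 24 h (median 8.18) and 8.77 to 9.56 after RA 36 h (median 8.98). It fell by 0.85 ± 0.15 after 24 h (adjusted p = 1.70e-05) and changed by 0.09 ± 0.15 after 36 h (adjusted p = 0.648), while the bright probe fell by 0.20 ± 0.06 and 0.22 ± 0.06. The dim probe of Psmd11 fell by 0.89 ± 0.12 after 24 h (adjusted p = 8.13e-07) and changed by 0.11 ± 0.13 after 36 h (adjusted p = 0.48). That of Psmc2 fell by 0.47 ± 0.12 after 24 h (adjusted p = 0.0019), where its bright probe rose. The slide difference appears in these probes too: after RA 24 h the dim Psmc2 probe averaged 9.19 with the first 5 compounds and 8.55 with the last 5, against 9.17 and 9.44 without RA. The dimmest of 3 Psmd1 probes fell by 0.69 ± 0.11 after 36 h (adjusted p = 2.96e-06) and by 0.57 ± 0.10 after 24 h (adjusted p = 2.64e-05), against 0.00 and 0.30 on the brightest. Other dim probes rose: the dimmest of Psmd7 by 0.26 ± 0.07 after 24 h (adjusted p = 0.00274), where its brightest did not change detectably, and the dimmer probes of Psmd10 by 0.29 ± 0.06 and 0.42 ± 0.06. Some dimmer probes fell less than the brightest after RA 24 h. That of Psmd2 fell by 0.33 ± 0.14 (adjusted p = 0.0438) and differed between the RA schedules by -0.24 ± 0.15 (adjusted p = 0.195). That of Psmd9 changed by -0.17 ± 0.10 (adjusted p = 0.163), with 0.05 ± 0.11 between the RA schedules (adjusted p = 0.762). That of Psmd6 changed by -0.22 ± 0.15 (adjusted p = 0.194), with -0.66 ± 0.15 between the RA schedules (adjusted p = 0.0015). For Psmd1 and Psmc2, then, the direction after RA 24 h depends on the probe.

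**Figure D3:**
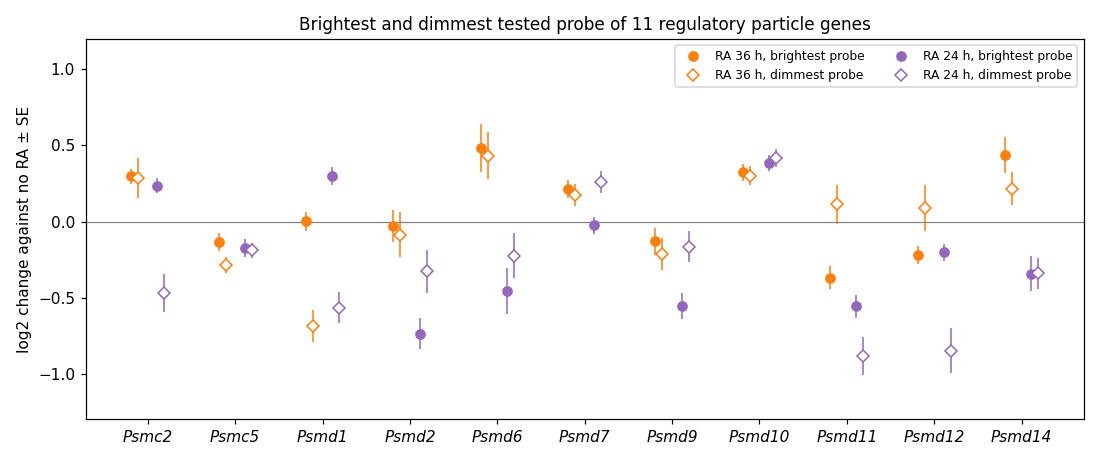
Log2 change against no RA with its standard error (y axis) on the brightest (filled circle) and dimmest tested probe (open diamond) of the 11 Psmc and Psmd genes with more than 1 tested probe (x axis), in orange for RA 36 h and purple for RA 24 h. The purple diamonds of 9 genes lie below 0, including those of Psmc2 and Psmd1 whose purple circles lie above it, and those of Psmd7 and Psmd10 lie above 0, while 7 of the 11 orange diamonds lie above 0.

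Among the activators, Psme4 (PA200, a cap linked to histone degradation) gave the widest separation. Its log2 level was 13.15 to 13.48 without RA (median 13.32), 12.80 to 13.44 after RA 24 h (median 13.35) and 12.43 to 12.90 after RA 36 h (median 12.59). No RA and RA 36 h did not overlap, and the gene fell by 0.74 ± 0.08 (adjusted p = 8.67e-09), or 1.67-fold, while a second probe gave -0.74 ± 0.14 (adjusted p = 5.91e-05). After RA 24 h the change was -0.13 ± 0.08 (adjusted p = 0.138), and the RA schedules differed by 0.61 ± 0.08 (adjusted p = 1.63e-06).

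Within the RA 24 h schedule, compounds and controls differed for Psme4. The 10 compound arrays averaged 13.33 ± 0.09 (SD), whereas Mock stood at 12.80 and CM at 12.43. Compounds lay above controls by 0.72 ± 0.10 in that schedule (adjusted p = 6.27e-06), 1 of 43 genes called higher where 4.16% of all genes were. Without RA the same contrast gave 0.04 ± 0.09 (adjusted p = 0.907), and the difference between the contrasts was 0.68 ± 0.14 (adjusted p = 0.00121). On the control arrays alone Psme4 fell after RA 24 h by 0.68 ± 0.12 (adjusted p = 3.71e-05), and after RA 36 h by 0.69 ± 0.16 (adjusted p = 0.000945). The RA 36 h value rests on 1 control array, with no spread of its own, and the RA 24 h value on 2. Without CM the difference between the contrasts was 0.50 with an adjusted p of 0.077.

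Psme1 and Psme2 encode the PA28 ring that interferon induces together with the inducible core, and they moved apart. Psme1 fell by 0.28 ± 0.05 after 36 h (adjusted p = 5.95e-05) and by 0.15 ± 0.05 after 24 h (adjusted p = 0.0129). Psme2 had a log2 level of 8.15 to 8.53 without RA (median 8.26), 8.28 to 9.03 after RA 24 h (median 8.64) and 8.44 to 8.78 after RA 36 h (median 8.59). It rose by 0.34 ± 0.08 after 36 h (adjusted p = 0.00102) and by 0.47 ± 0.08 after 24 h (adjusted p = 1.31e-05), in 11 of 11 treatments each. With the first 5 compounds alone the changes were 0.21 (adjusted p = 0.059) and 0.19 (adjusted p = 0.0955). After RA 24 h its highest arrays were CM at 9.34 and Mock at 9.03, and compounds lay below controls by 0.52 ± 0.13 (adjusted p = 0.00548), 1 of 43 genes called lower where 3.89% of all genes were. Psme3, a nuclear cap, fell by 0.37 ± 0.09 after 36 h (adjusted p = 0.00156) and changed by -0.11 ± 0.09 after 24 h (adjusted p = 0.304).

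**Figure D4:**
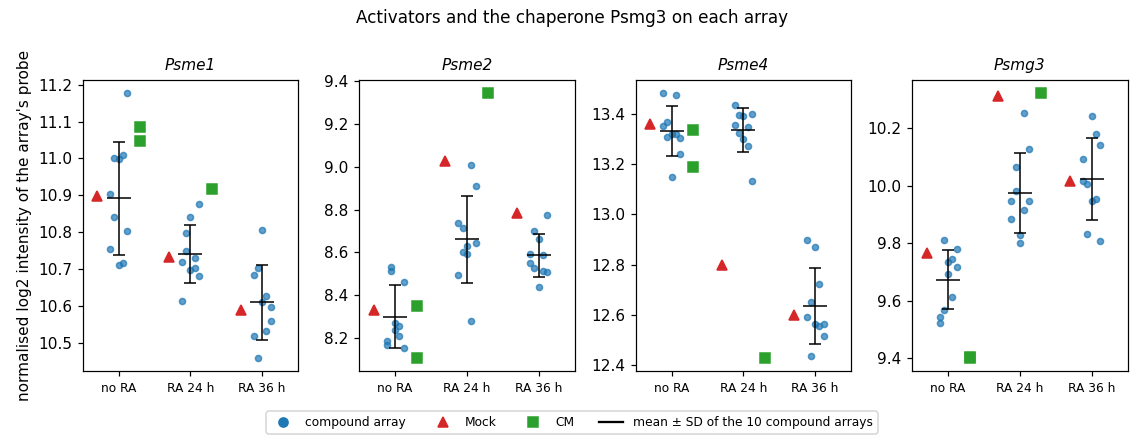
Normalised log2 intensity (y axis) of Psme1, Psme2, Psme4 and the chaperone gene Psmg3 on each array, by schedule (x axis); circles are the 10 compound arrays with their mean ± SD, triangles Mock and squares CM, and each panel has its own y range that does not start at 0. After RA 24 h the Mock and CM arrays of Psme4 (12.80 and 12.43) lie below all 10 compound arrays and those of Psme2 (9.03 and 9.34) above them.

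The core chaperones did not move as a group. Psmg3 rose by 0.37 ± 0.07 after 36 h (adjusted p = 6.49e-05) and by 0.39 ± 0.07 after 24 h (adjusted p = 2.16e-05). Psmg1 fell by 0.21 ± 0.05 and 0.22 ± 0.05. Psmg2 rose on its brightest probe by 0.22 ± 0.05 after 24 h, but its other 2 probes fell by 0.20 ± 0.06 (adjusted p = 0.00399) and 0.39 ± 0.07 (adjusted p = 2.34e-05), so its direction depends on the probe. After RA 24 h Psmg3 stood at 10.31 with Mock and 10.32 with CM against 9.98 ± 0.14 with compounds, and without RA at 9.77 with Mock, 9.41 and 9.40 with CM and 9.67 ± 0.10 with compounds. The difference between the contrasts was -0.49 ± 0.15 (adjusted p = 0.0421). Across the 43 genes that test gave 1 higher (Psme4) and 2 lower (Psme2, at -0.56 ± 0.17 with an adjusted p of 0.04, and Psmg3), where 2.46% and 2.67% of all genes passed.

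No compound changed a proteasome gene detectably against the mean of the other 9. Of 430 pairs of gene and compound, 0 passed the adjusted threshold, against 0.0234% of 162350 pairs over all genes, which are 38 pairs, all with Docetaxel. At an unadjusted p under 0.05, 7 of the 430 passed, 0% to 2.33% of the 43 genes per compound, against 2.73% to 9.17% of all genes. The 95% interval of a pair reached between 0.13 and 0.47 on the log2 scale to either side, with a median of 0.18, and 391 of 430 intervals lay wholly within 0.5 of 0. A change within those intervals cannot be told from none at 3 arrays per compound. The mean of the compounds against Mock gave 0 calls in limma among the 43 genes and 0 among all genes, and 3 of the 43 had an unadjusted p under 0.05.

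The largest compound values were in dim genes. Psmd6 with BAY 11-7082 differed by 0.63 (interval 0.16 to 1.097), with levels of 7.78 without RA, 8.30 after RA 24 h and 8.47 after RA 36 h. The array after RA 24 h was the highest of its schedule. Psmd2 with Dorsomorphin dihydrochloride differed by -0.51 (interval -0.82 to -0.20). Psmb9 with Forskolin differed by -0.43 (interval -0.67 to -0.20), and its level was below the lowest of the other 9 compounds in each schedule: 5.88 against 5.92 without RA, 5.13 against 5.30 after RA 24 h and 4.81 against 4.96 after RA 36 h. Its adjusted p was 0.99993 over all genes. The lowest adjusted p of any pair was 0.505, for Psmb9 with Docetaxel, at a difference of 0.26.

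**Figure D5:**
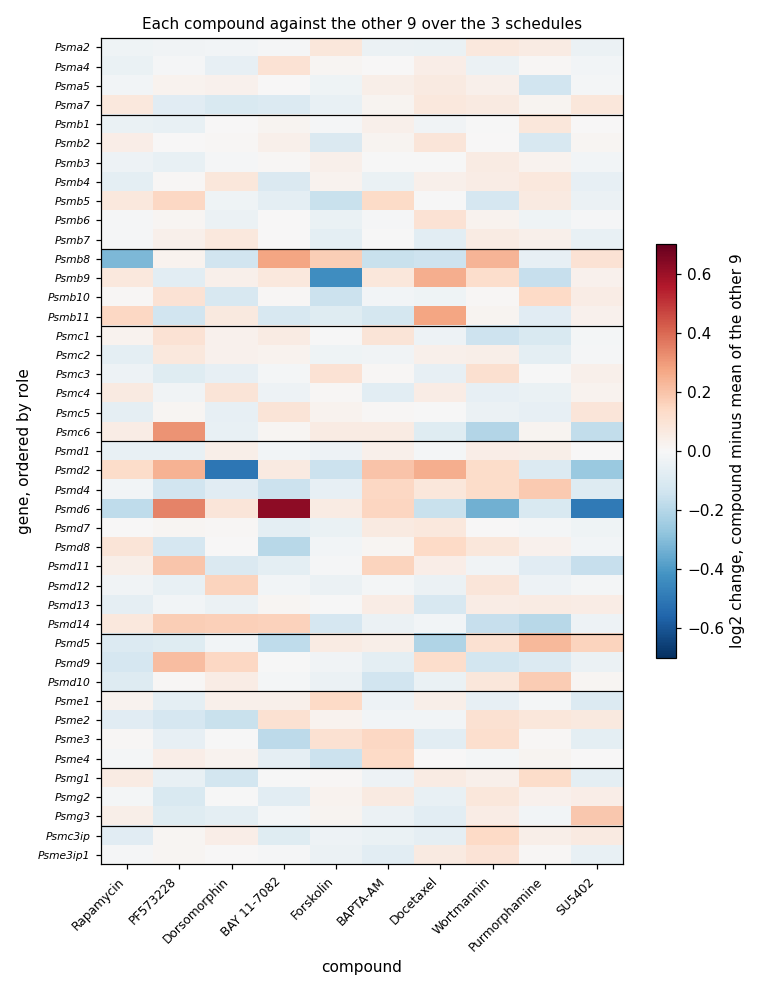
Log2 difference (colour) of each of the 43 genes (rows, by role) with each compound (columns) from the mean of the other 9 compounds over the 3 schedules. The deepest colours are Psmd6 with BAY 11-7082 (0.63) and SU5402 (-0.50) and Psmd2 with Dorsomorphin (-0.51), and 0 of 430 cells passed the adjusted test.

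Conditioned medium was compared with Mock in the fit over all arrays, with schedule as a term. Psmd13 was the 1 gene of 43 called, higher with CM by 0.47 ± 0.13 (adjusted p = 0.0424), where 1.13% of all genes were higher and 2.2% lower. Its log2 level with CM was 12.19 and 11.80 without RA and 11.98 after RA 24 h, and with Mock 11.67 without RA, 11.37 after RA 24 h and 11.19 after RA 36 h. Leaving out single control arrays ended the call for 5 of 6 arrays, each Mock array, CM after RA 24 h and the first CM array without RA, with adjusted p between 0.0963 and 0.187 at values of 0.39 to 0.52.

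Genes that work with the proteasome were taken from lists made for this report, whose counts stand against 26.8% of all genes higher and 30.3% lower after 36 h, and 29.4% and 33% after 24 h. Among regulators and assembly factors, 4 of 9 rose and 2 fell after 36 h, and 3 rose and 3 fell after 24 h. Nfe2l1 (NRF1), the transcription factor that restores proteasome gene expression when the proteasome is blocked, fell by 0.54 ± 0.06 (adjusted p = 1.94e-08) and 0.60 ± 0.06 (adjusted p = 1.65e-09), and its partner Mafg by 0.29 ± 0.08 and 0.41 ± 0.08. Bach1, a repressor at antioxidant response elements, rose after 36 h by 0.58 ± 0.15, with a change of -0.22 ± 0.14 after 24 h. Pomp, the chaperone that completes the core, changed by 0.09 ± 0.04 (adjusted p = 0.0679) and rose by 0.12 ± 0.04 after 24 h.

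Of 10 proteasome-bound proteins, 3 rose and 4 fell after 36 h, 1 rose and 5 fell after 24 h, and RA 24 h lay below RA 36 h for 6 and above it for 1, against 18.6% and 21.8% of all genes. Usp14, a deubiquitinase on the 19S particle, changed by 0.24 ± 0.12 (adjusted p = 0.0847) and fell by 0.51 ± 0.11 after 24 h, a difference of -0.75 ± 0.12 between the RA schedules (adjusted p = 1.48e-05). Ecpas, which tethers core to cap, changed by 0.25 ± 0.11 (adjusted p = 0.0649) and fell by 0.47 ± 0.11, a difference of -0.71 ± 0.11 (adjusted p = 1.76e-05). Ube3a, a ubiquitin ligase, fell by 0.48 ± 0.12 and 0.84 ± 0.12. Of 7 genes that supply ubiquitin, 2 rose and 3 fell after 36 h and 1 rose and 2 fell after 24 h, with Uba6, a ubiquitin-activating enzyme, lower by 0.56 ± 0.08 and 0.91 ± 0.08. Of 8 genes of the p97 unfoldase and its adaptors, 3 rose and 1 fell, and 2 rose and 2 fell.

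The antigen presentation list held 11 tested genes, 5 of which are proteasome genes above, and 4 rose and 5 fell in each comparison with no RA. B2m, the light chain of MHC class I, rose by 0.69 ± 0.08 (adjusted p = 5.41e-08) and 0.67 ± 0.08 (adjusted p = 5.03e-08). Tapbp, which loads peptides, rose by 0.49 ± 0.14 and 0.39 ± 0.13. Irf1, an interferon-responsive activator of the inducible subunits, fell by 0.45 ± 0.07 (adjusted p = 2.99e-06) and 0.84 ± 0.07 (adjusted p = 2.66e-11). Tap1, whose promoter window overlaps that of Psmb9, changed by -0.19 ± 0.13 (adjusted p = 0.219) and -0.03 ± 0.12 (adjusted p = 0.853). Tap1 and Tapbp were both near background. Of 11 arrays per schedule, Tap1 was detected on 8 without RA, 9 after RA 24 h and 7 after RA 36 h. Tapbp was detected on 8, 10 and 10, so the sizes for both genes are limited by detection.

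Mean raw signal ran from 336 to 692 over the arrays, and 37.1% to 43.1% of probes were detected. The labelled cell type was checked against 8 epiblast markers, all detected on every array without RA and 4 of them on every array with RA. Their summed linear level was 36925 to 51321 without RA, 3475 to 9959 after RA 24 h and 4242 to 6378 after RA 36 h, and 7 of the 8 fell in each comparison with no RA. The sum weights bright markers such as Dnmt3b (mean log2 14.67 without RA), and Sox2 went the other way after 36 h, rising by 1.18 ± 0.17 (adjusted p = 8.04e-07), with a change of -0.31 ± 0.16 after 24 h (adjusted p = 0.0959). Fibroblast markers, 5 of 7 tested, summed to 776 to 1398, 596 to 1704 and 1019 to 1976. Of the 5, 4 rose and 1 fell after 36 h, and 2 rose and 1 fell after 24 h. Thy1 was the one that fell, with a mean log2 level of 7.73 without RA, 5.83 after RA 24 h and 5.05 after RA 36 h. Postn was detected on 0 arrays. Immune markers, 3 of 7 tested, summed to 101 to 216, 169 to 239 and 129 to 186, and Lyz2, Cd52 and Tyrobp were detected on 0 arrays. The part of these cell types in the results was not tested. Slide 2 holds RA 36 h arrays, all with a compound, and the Mock array without RA. RA and compound therefore differ together in a comparison within that slide. There Psmb10 differed by -0.97, Psmb9 by -0.91, Psme4 by -0.62, Psmb8 by -0.51 and Psmb5 by -0.16. The array without RA is the only one of its group on that slide and has no spread of its own.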

How the data were processed

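Total RNA of 36 EpiSC samples was hybridised to Illumina MouseWG-6 v2 bead arrays, scanned on an iScan per the labels. The authors deposited raw intensities, of which 30.2% to 36.6% per array are negative, and a detection p-value beside each, per the file headers. What background correction preceded this was not stated. A deposited second set on a log2 scale was made with variance stabilisation and robust spline normalisation in lumi, per the labels, and served as an alternative.

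Intensities were normalised with neqc of limma 3.58.1 in R 4.3.3 (background estimated from detection p-values, offset 16, log2, quantile). Probes with a detection p-value under 0.05 on 3 or more arrays were kept, and each symbol was read from its probe of highest mean. The annotation gives 34885 probes 1 symbol, 18 several and 10378 none. Schedules, compounds and CM were compared in a model of schedule and treatment (22 residual degrees of freedom), and compounds with controls within schedules in a model of schedule by class (30), by eBayes with Benjamini-Hochberg adjustment over all 16235 genes. Probe-level values come from the same fit over 23999 probes. The number of arrays limits the precision, and no level is set against that of another probe. The scripts were tested on simulated data.

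The genes and lists were chosen with earlier results of these data known. Given in full were, among genes past the threshold, the 6 with the largest rise and the 6 with the largest fall per schedule comparison, up to 5 each way elsewhere, and the catalytic, activator and chaperone genes. Up to 4 each way were named from the partner lists. Some genes of the partner lists were not analysed here. Promoter windows are RefSeq's for GRCm38.p6. Alternatives were other scaling, offsets, filters and probe rules, the slide as a block, subsets of arrays and leaving out single control arrays. The fit to each set of 5 compounds was chosen after seeing the data.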

Additional observations from a re-analysis of the deposited data

Results flagged for a closer look

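The difference between compounds and controls (Mock and CM) was itself tested between the RA 24 h schedule and no RA, and 3 genes passed. Psme4 (PA200) gave 0.68 ± 0.14 (SE) on the log2 scale (adjusted p = 0.00121). Psme2 (PA28 beta) gave -0.56 ± 0.17 (adjusted p = 0.04). Psmg3, a core assembly chaperone, gave -0.49 ± 0.15 (adjusted p = 0.0421). The RA 24 h side rests on 2 control arrays. Without its CM array, Psme4 gave 0.50 (adjusted p = 0.077), Psme2 -0.40 (adjusted p = 0.343) and Psmg3 -0.49 (adjusted p = 0.153), and without its Mock array Psmg3 gave -0.50 (adjusted p = 0.133).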

How the results depend on the processing

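For 97 gene results, 870 of 1051 values under alternatives kept direction and side of the threshold, 159 lost the call, 16 gained one and 6 turned sign. Those 6 were Psmd6 after RA 36 h within the slide that holds both (-0.25, adjusted p = 0.757), Psmd14 after RA 24 h with the first 5 compounds (0.14), and, with the mean of a gene's probes, Psmd1 (-0.047), Psmc2 (-0.12) and Psmg2 (-0.12) after RA 24 h and Psmg2 in RA 24 h against RA 36 h (-0.13). The deposited log2 values kept all 26, 31 and 17 calls of the schedule comparisons. After RA 36 h, 11 genes higher became 4 on Mock and CM arrays alone, 5 with median centring and 0 within the slide, and 15 lower became 6 on Mock and CM and 3 within the slide. After RA 24 h, 12 higher became 7 on Mock and CM and 7 with the first 5 compounds, and 19 lower became 10 and 8. For RA 24 h against RA 36 h, 9 higher became 5 with the slide as a random block and 3 with the first 5 compounds, and 8 lower became 5 with median centring. These subsets hold fewer arrays; for the other settings the cause was not tested. Compounds against controls within RA 24 h, 1 lower, gave 3 with the deposited log2 values, 2 with the mean of probes, with probes detected on all 36 arrays, with an offset of 50 and with the slide as a block, 0 with median centring, and 0 to 2 leaving out single control arrays. The CM call became 0 without the detection filter (adjusted p = 0.0525) and with the slide as a block (0.239), and 0 to 1 leaving out single arrays. Compounds gave 0 calls under every alternative run. Detection limits Psmb8, Psmb9, Psmb11 and Psmc6, and Tap1 and Tapbp of the partner lists, which are near background. The schedule comparisons already match arrays by treatment (11 pairs each), and their fit also uses the CM arrays. Beyond that, no block by replicate number could be fitted, because no groups compared share 2 or more replicate numbers.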
